A study of Homo sapiens with 4 samples.

Results

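The MHC class I presentation pathway was followed through 9 genes: the heavy chain genes HLA-B, HLA-C, HLA-E and HLA-F, the light chain gene B2M, the peptide loading genes TAP1, TAP2 and TAPBP, and NLRC5, the transactivator of class I genes. Its probes were all those that GEO's platform annotation assigns to one of these symbols, 15 of the 47230 complete probes of the arrays. The cells were L591, a Hodgkin lymphoma line. They received 40 µg of the expression plasmid pcDNA3, either carrying PDLIM2 transcript variant 2 (the PDLIM2 arrays) or empty (the mock arrays). All cells of both groups also received 10 µg of the GFP plasmid pEGFP-N3 and were sorted for GFP, so both groups are transiently transfected cells of 1 line. There were 2 Illumina bead arrays a group, to which the sample titles give the numbers 1 and 2, and so few arrays limit the precision of all values below. Whether the arrays within a group are separate cultures is not said, so the spread behind the p-values may be technical.

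Class I molecules carry peptides made in the cytosol to the cell surface, where CD8 T cells read them. The proteasome cuts proteins to peptides, the TAP1 and TAP2 transporter moves them into the endoplasmic reticulum, and tapasin (the TAPBP product) holds the transporter and an empty heavy chain with beta-2-microglobulin together until a peptide is bound. NF-kB, interferon regulatory factors and NLRC5, acting with the RFX and NF-Y complexes, drive the promoters of these genes, and Hodgkin lymphomas often lose class I from the surface, for example through B2M mutation. PDLIM2 is a putative ubiquitin ligase known to act on the NF-kB subunit p65 and on STAT proteins, and the study asked what its return does to transcript levels in these cells.

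The promoters are shown because the regulators named above act there and because HLA-B, HLA-C and B2M hold the letters of an NF-kB site next to the transcripts measured here. RefSeq gave a window of 250 bases before to 50 after the start for 7 of the 9 genes, not for HLA-E and NLRC5, and TAP1 had windows at more than 1 start, 8 windows in all. The 200 bases before the start follow, 5′ to 3′ on the gene's strand, with capitals marking every match on either strand to the NF-kB consensus, the interferon response core TTTCNNTTC or the NF-Y box CCAAT. They lie in GRCh38.p14 at chr6:31357180-31357379 (minus strand, HLA-B), chr6:31272093-31272292 (minus strand, HLA-C), chr6:29723234-29723433 (plus strand, HLA-F) and chr15:44711317-44711516 (plus strand, B2M).
HLA-B: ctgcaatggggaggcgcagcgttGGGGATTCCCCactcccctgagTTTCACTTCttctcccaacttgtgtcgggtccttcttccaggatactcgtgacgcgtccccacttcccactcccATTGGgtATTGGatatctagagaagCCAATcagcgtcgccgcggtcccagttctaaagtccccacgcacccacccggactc
HLA-C: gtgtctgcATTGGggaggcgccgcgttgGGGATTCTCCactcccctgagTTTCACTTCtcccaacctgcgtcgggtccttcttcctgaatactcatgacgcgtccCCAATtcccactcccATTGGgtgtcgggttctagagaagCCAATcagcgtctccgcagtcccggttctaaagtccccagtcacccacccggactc
HLA-F: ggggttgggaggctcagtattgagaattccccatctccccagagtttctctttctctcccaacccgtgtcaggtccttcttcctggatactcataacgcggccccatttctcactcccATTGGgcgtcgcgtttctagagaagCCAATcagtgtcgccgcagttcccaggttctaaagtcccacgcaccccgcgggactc
B2M: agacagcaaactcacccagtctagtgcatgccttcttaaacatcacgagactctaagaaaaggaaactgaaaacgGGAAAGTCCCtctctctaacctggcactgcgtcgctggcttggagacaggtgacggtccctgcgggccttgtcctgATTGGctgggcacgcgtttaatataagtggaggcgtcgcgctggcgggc

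The NF-kB consensus was found in 5 of the 8 windows (for HLA-B, HLA-C, B2M, TAP1 and TAPBP), against 5.91% of all 35116 promoter windows. The HLA-B match starts at -177 and reads on both strands, with an overlapping match at -176, and the HLA-C match starts at -172. The interferon response core was found in 3 of the 8 windows, for HLA-B (at -155), HLA-C (at -151) and TAP2 (at -63), against 7.66% of all windows. That search took only the exact letters TTTCNNTTC. Longer forms were not searched for, such as gaaactgaaa in the B2M, gaaagtgaaa in the TAPBP, tttctctttc in the HLA-F and tttcgatttc in the TAP1 sequence. The 3 windows are therefore not a count of all such sites, and a gene without a match may still hold a site. CCAAT was found in 5 of the 8 windows, for HLA-B, HLA-C, HLA-F, B2M and TAP1, against 34.6% of all windows. The letters TGACGNNA and GCAACNG, searched for the X boxes at which RFX and NLRC5 act, matched in 0 of the 8 windows, against 7.55% and 11.9% of all windows, which says only that these exact letters are not there.

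No class I pathway gene passed the test for a difference between PDLIM2 and mock arrays. Probes of HLA-B, HLA-F, TAP2 and NLRC5 read 0.17 to 0.20 log2 units higher in the PDLIM2 arrays, within the spread of the arrays. The brighter HLA-C probe stood at -0.13, and the B2M probes at -0.067 and 0.12. HLA-E and TAP1 lay near 0, and a pair of TAPBP probes pointed opposite ways, mainly through the PDLIM2 array 2. The test (limma, with Benjamini-Hochberg adjustment) ran over the 23615 probes whose mean log2 value exceeded 5.99, the median over the whole array. Of the 15 class I probes 14 were tested, and the dimmer HLA-C probe lay under this filter. Limma called 0 of the 14 higher and 0 lower at an adjusted p under 0.05, where it called 0 of all 23615 probes (0%). This fit did not take the array number into account. At an unadjusted p under 0.05 it gave 0 of 14 class I probes, against 665 of all tested probes (2.82%, of which 1.08% higher and 1.74% lower). Both PDLIM2 values exceeded both mock values for 0 of the 14 (15.8% of all tested probes) and fell short of both for 1 (12.8% of all tested probes). Values were above 0 for 9 of the 14 probes (52.8% of all tested probes). The median difference, PDLIM2 minus mock, was 0.14 log2 units over the 14 probes and 0.012 over all tested probes. The class I median was 0.026 with the probes of a gene averaged. Over the probes, leaving out the PDLIM2 array 2 put it at -0.021, leaving out the mock array 1 at 0.020, and leaving out the PDLIM2 array 1 at 0.27. In the fit without the array number all 14 intervals held 0. For 12 probes the 95% interval lay within a 2-fold change either way, the exceptions being a pair of TAPBP probes.

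**Figure D1:**
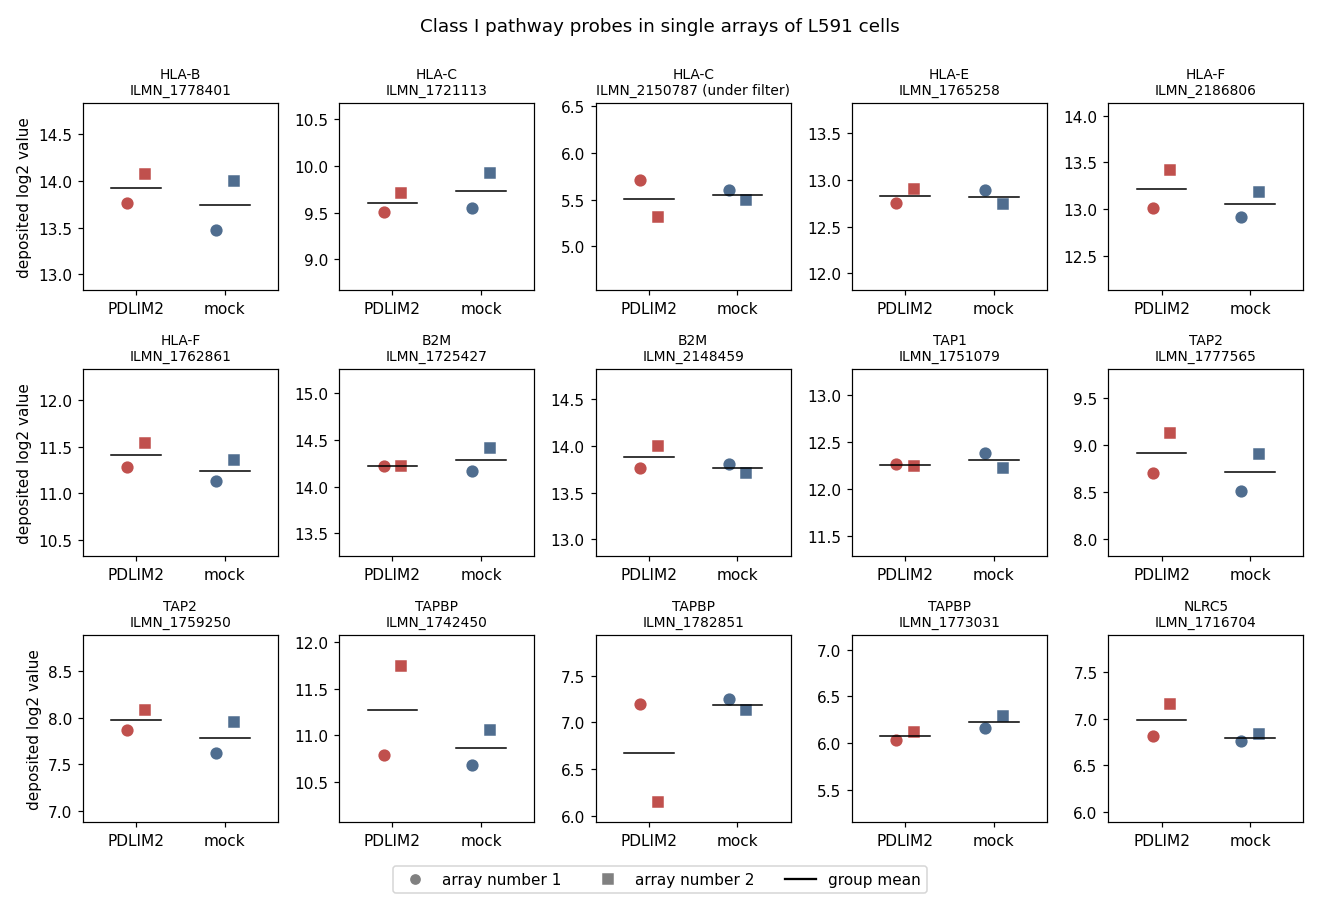
Deposited log2 value (y axis) of each of the 15 class I pathway probes on each array, PDLIM2 arrays left of mock arrays, circles for array number 1, squares for number 2 and a line for the group mean. Every panel spans the same range of log2 units. The PDLIM2 and mock values overlap in every panel but that of the TAPBP probe ILMN_1773031, and the square of the PDLIM2 group stands far from the other 3 points for the TAPBP probes ILMN_1742450 and ILMN_1782851.

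Of the heavy chains, HLA-B and HLA-C encode classical molecules that present peptides to CD8 T cells. HLA-B (ILMN_1778401) read 13.77 and 14.08 log2 units in the PDLIM2 arrays 1 and 2, against 13.48 and 14.00 in the mock arrays 1 and 2. The PDLIM2 value was the higher one at both array numbers, by 0.29 and 0.075, but the groups overlapped because both arrays numbered 2 read high. The difference was 0.18 log2 units (SE 0.23, 95% interval -0.36 to 0.73; limma, adjusted p = 0.9998), and it was -0.080 without the mock array 1. HLA-C went the other way in its brighter probe (ILMN_1721113), with 9.50 and 9.71 in the PDLIM2 arrays, against 9.55 and 9.92 in the mock arrays. That difference was -0.13 (SE 0.20, interval -0.60 to 0.34), with overlapping groups. The other HLA-C probe (ILMN_2150787) was among the dimmest of the arrays, at percentile 8.99 of all probes, and read 5.71 and 5.31 in the PDLIM2 arrays, against 5.61 and 5.50 in the mock arrays.

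HLA-E and HLA-F encode nonclassical chains, of which HLA-E presents leader peptides of other class I chains to the NK cell receptor CD94-NKG2A. HLA-E (ILMN_1765258) read 12.75 and 12.90 in the PDLIM2 arrays, against 12.89 and 12.74 in the mock arrays, a difference of 0.0096 log2 units (SE 0.17, interval -0.40 to 0.42). The values of the groups interleaved, and the interval spans 0.758-fold to 1.34-fold. HLA-F had a pair of probes that gave nearly the same difference. The brighter one (ILMN_2186806) read 13.02 and 13.42 in the PDLIM2 arrays, against 12.92 and 13.18 in the mock arrays, and the other (ILMN_1762861) 11.29 and 11.54, against 11.13 and 11.36. Both differences were 0.17 (SE 0.21 and 0.19), the PDLIM2 array read higher at both numbers for both probes, and the groups overlapped for both. Leaving out the PDLIM2 array 2 put them at -0.035 and 0.043, and leaving out the mock array 1 at 0.038 and 0.056. Heavy chain genes are closely similar in sequence and vary between alleles, and probe sequences were not used here, so which heavy chain transcripts a probe reads is uncertain.

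B2M, the light chain shared by all these heavy chains, was bright on all arrays and its probes differed in sign. ILMN_1725427 read 14.22 and 14.22 in the PDLIM2 arrays, against 14.16 and 14.41 in the mock arrays, a difference of -0.067 (SE 0.18, interval -0.49 to 0.35). ILMN_2148459 read 13.76 and 14.00 in the PDLIM2 arrays, against 13.81 and 13.71 in the mock arrays, a difference of 0.12 (SE 0.18, interval -0.30 to 0.54). The probes stood at percentiles 99.7 and 99.3 of all probes, and their groups overlapped.

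**Figure D2:**
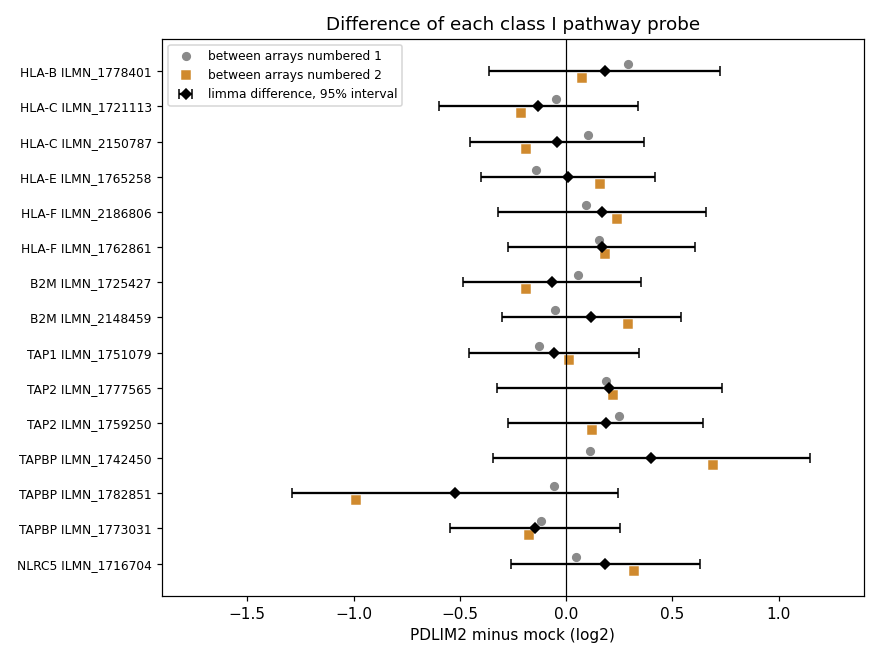
PDLIM2 minus mock in log2 units (x axis) for each class I pathway probe (y axis), with diamonds and bars for the limma difference and its 95% interval, circles for the difference between the arrays numbered 1 and squares for that between the arrays numbered 2. Every bar crosses 0, and circle and square lie far apart for the TAPBP probes ILMN_1742450 and ILMN_1782851.

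Neither transporter subunit passed the test. TAP1 (ILMN_1751079) read 12.26 and 12.24 in the PDLIM2 arrays, against 12.39 and 12.23 in the mock arrays, a difference of -0.056 log2 units (SE 0.17, interval -0.46 to 0.34). TAP2 had a pair of probes with like differences, 0.20 (SE 0.22, ILMN_1777565) and 0.19 (SE 0.19, ILMN_1759250). The brighter TAP2 probe read 8.70 and 9.13 in the PDLIM2 arrays, against 8.51 and 8.91 in the mock arrays, and the other 7.87 and 8.08, against 7.62 and 7.96. As for HLA-F, the PDLIM2 array was the higher one at each number for both probes, while the arrays numbered 2 of both groups read higher than those numbered 1, so the groups overlapped. Leaving out the mock array 1 put the TAP2 differences at 0.0072 and 0.017, and leaving out the PDLIM2 array 2 at -0.0075 and 0.081. TAP2, PSMB8, TAP1 and PSMB9 follow each other in this order among the protein-coding genes of chromosome 6. By its brightest probe the immunoproteasome subunit PSMB8 differed by -0.067 (SE 0.17), with its other probes at -0.31, 0.022 and -0.25. The subunit PSMB9 differed by 0.20 (SE 0.20) in its brighter probe and by -0.082 in the other, so probes of each of these subunits differed in sign.

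TAPBP, the tapasin gene, held both the highest and the lowest difference of the class I probes, and its 3 probes did not agree in sign. The brightest (ILMN_1742450) read 10.79 and 11.75 in the PDLIM2 arrays, against 10.68 and 11.05 in the mock arrays, a difference of 0.40 (SE 0.32, interval -0.35 to 1.15). ILMN_1782851 read 7.19 and 6.14 in the PDLIM2 arrays, against 7.25 and 7.13 in the mock arrays, a difference of -0.52 (SE 0.32, interval -1.29 to 0.24). In both probes the PDLIM2 array 2 stood apart from the other 3 arrays, in opposite directions. At array number 1 the differences were only 0.11 and -0.056, and at array number 2 they were 0.69 and -0.99. Without the PDLIM2 array 2 the differences were -0.075 and 0.0025. Without the PDLIM2 array 1 they were 0.88 and -1.05. In that fit array 2 is the whole PDLIM2 group and takes its spread from the mock arrays. The size of both differences therefore rests on 1 array.

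The remaining TAPBP probe (ILMN_1773031) read 6.04 and 6.12 in the PDLIM2 arrays, against 6.16 and 6.29 in the mock arrays. It was the 1 class I probe whose groups did not overlap, at a difference of -0.15 (SE 0.17; limma, adjusted p = 0.9998), and it was dim, at percentile 57.9 of all probes. The annotation ties the 3 TAPBP probes to different transcripts of the gene, and whether each probe reads only its own was not tested. The named genes with the profile nearest to ILMN_1782851 over the 4 arrays, each probe taken relative to its own mean, were the chaperonin gene TCP1 (root mean square distance 0.022 log2 units), ARHGAP30 (0.032) and HEATR3 (0.032). Those genes too were low in the PDLIM2 array 2: TCP1 read 11.10 and 10.00 in the PDLIM2 arrays, against 11.11 and 10.99 in the mock arrays. With 4 arrays and 23615 tested probes such likeness is a description only.

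NLRC5, which brings histone-modifying and transcription factors to class I promoters, had 1 probe (ILMN_1716704). It read 6.81 and 7.15 log2 units in the PDLIM2 arrays, against 6.76 and 6.83 in the mock arrays. The PDLIM2 array 2 was the highest of the 4, the other 3 values lay close together, and the groups overlapped. The difference was 0.19 (SE 0.19, interval -0.26 to 0.63), with 0.049 at array number 1 and 0.32 at array number 2. It was 0.015 if the PDLIM2 array 2 was left out and 0.36 if the PDLIM2 array 1 was.

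Class I values also differed between the array numbers. Array 2 read above array 1 in both groups for 10 of the 14 tested probes, against 32.2% of all tested probes, and below in both for 2, against 32.9%. The median shift from array 1 to array 2 was 0.22 log2 units in the PDLIM2 arrays and 0.24 in the mock arrays, and over all tested probes it was 0.0079 and -0.011. For HLA-B this shift was 0.31 in the PDLIM2 arrays and 0.52 in the mock arrays, and for TAP2 (ILMN_1777565) it was 0.42 and 0.39, in each case larger than PDLIM2 minus mock. TAP1 was one of the exceptions, at -0.023 in the PDLIM2 arrays and -0.16 in the mock arrays. In 7 of the 14 probes the shift was larger in size than PDLIM2 minus mock in both groups. What the array number stands for is not given in the labels, and its part in the differences was not tested beyond the fit with the number as a block. PDLIM2 minus mock had the same sign at both numbers for 10 of the 14 probes, against 54.6% of all tested probes.

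**Figure D3:**
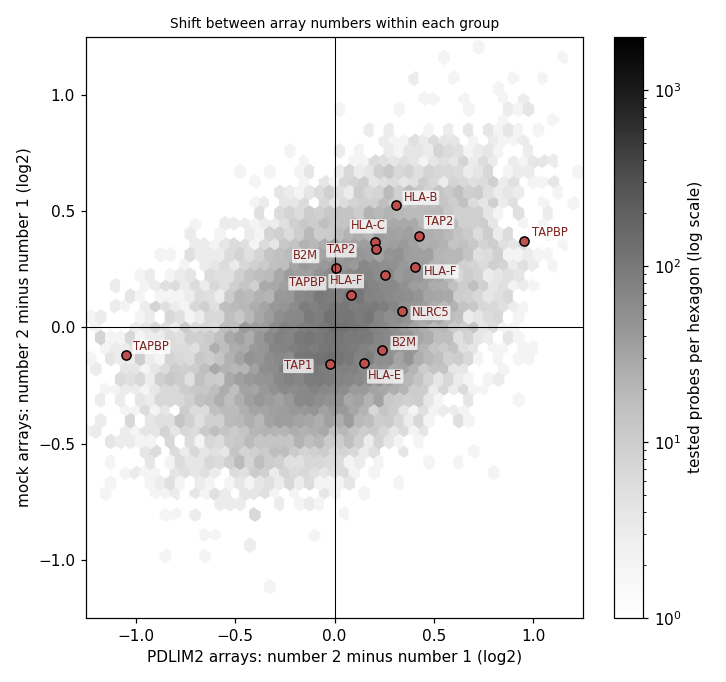
Array number 2 minus array number 1 in log2 units, in the PDLIM2 arrays (x axis) and in the mock arrays (y axis), for the 14 tested class I probes (red points, with gene names) over all tested probes (grey hexagons by number of probes, log scale, with 229 probes beyond the axes at 1.25 left out). The class I points lie mostly in the upper right, where array 2 read higher in both groups, and TAPBP stands far to the left and to the right.

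Other genes of the pathway were taken from a list of 40 genes in 4 groups, of which 34 had a probe and 29 a tested one. Limma called 0 of their 47 tested probes higher and 0 lower (0% of all tested probes), and 1 had an unadjusted p under 0.05, against 2.82% of all tested probes. By the brightest tested probe, 15 genes had values above 0 and 14 below, with a median difference of 0.0064 log2 units. In the group of peptide supply (immunoproteasome subunits, their activators and the trimming peptidases), 3 genes had values above 0 and 4 below. ERAP1, which trims peptides in the endoplasmic reticulum, read 7.05 and 6.72 in the PDLIM2 arrays by its brighter probe, against 7.15 and 7.25 in the mock arrays. The difference of that probe was -0.32 (SE 0.19), or -0.48 to -0.16 over the fits that leave out an array. The other ERAP1 probe differed by 0.043 (SE 0.17), so the probes differed in sign. PSMB9 read 10.03 and 10.47 in the PDLIM2 arrays, against 10.03 and 10.08 in the mock arrays, and its difference was -0.018 without the PDLIM2 array 2.

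Of 3 tested genes for loading and folding, 1 had a value above 0 and 2 below. CALR, which encodes the chaperone calreticulin of the loading complex, read 11.38 and 11.33 in the PDLIM2 arrays, against 11.15 and 10.93 in the mock arrays (difference 0.32, SE 0.17, interval -0.097 to 0.73, or 0.20 to 0.43 over the fits that leave out an array). TAPBPL, which encodes the tapasin relative TAPBPR, differed by -0.11 (SE 0.17), or -0.19 to -0.021 over those fits. Among the other class I and class I-like chains 4 genes had values above 0 and 4 below. HLA-G, a nonclassical chain best known from the placenta, differed by 0.21 (SE 0.17) and the lipid-presenting CD1C by -0.14 (SE 0.17), or -0.21 to -0.067 over the fits that leave out an array.

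The transcription group held the 1 probe with an unadjusted p under 0.05. IRF1, an interferon regulatory factor that drives class I and TAP1 promoters, read 10.25 and 9.95 log2 units in the PDLIM2 arrays, against 11.00 and 10.88 in the mock arrays. Both PDLIM2 values lay below both mock values, and the difference was -0.84 (SE 0.19, 95% interval -1.28 to -0.40), which limma did not call (adjusted p = 0.9998). Leaving out single arrays, so that 1 array stood alone in a group, gave differences between -0.99 and -0.69. CREB1, a factor of the X box, differed by -0.36 (SE 0.19) in its brightest probe, or -0.53 to -0.19 over the fits that leave out an array. Its other tested probes stood at -0.17, -0.20, -0.20 and 0.23, so the CREB1 probes differed in sign. The exact letters TTTCNNTTC stood in promoter windows of 3 genes. Beside IRF1 at -0.84, these were at 0.18 (HLA-B), -0.13 (the tested HLA-C probe) and 0.20 and 0.19 (TAP2) log2 units. TAP1 was at -0.056. Its windows lack these exact letters, but a TAP1 window holds the longer form tttcgatttc, which was not searched for. The genes are therefore not split here into those with and without such a site. Whether IRF1 acts on any of these genes here was not tested. In the transcription group 7 of the 11 tested genes had values above 0 by their brightest probe. Among them were CIITA, the class II counterpart of NLRC5, at 0.39 (SE 0.22), and RFX5 at 0.21 (SE 0.19). The other RFX5 probe stood at -0.13 (SE 0.17), so the RFX5 probes differed in sign.

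**Figure D4:**
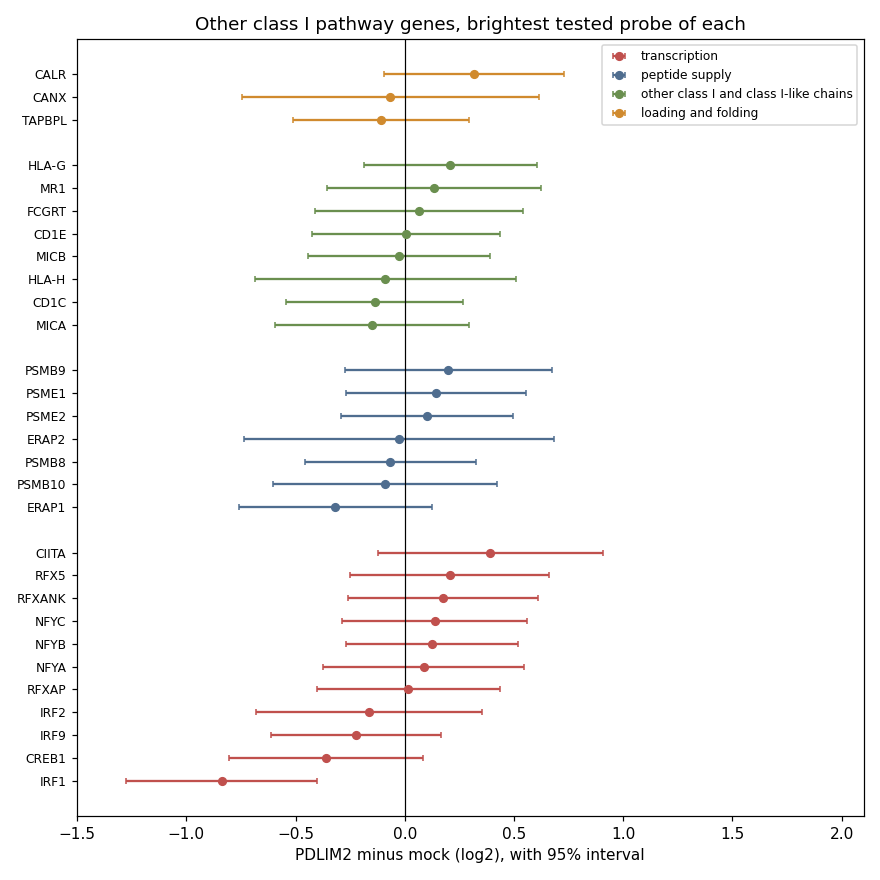
PDLIM2 minus mock in log2 units (x axis), with 95% interval as bars, for the brightest tested probe of each of the 29 other class I pathway genes (y axis), coloured by group. All intervals hold 0 but that of IRF1, at -0.84.

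PDLIM2 itself was dim and its probes disagreed, at 5.76 and 5.52 in the PDLIM2 arrays, against 5.50 and 5.15 in the mock arrays (ILMN_1669667), and at 5.24 and 5.27, against 5.48 and 5.62 (ILMN_1770248). Whether either probe lies in the transfected cDNA was not tested, so neither checks the labels. All 9 Hodgkin and Reed-Sternberg markers had means above the brightness filter, from FSCN1, between 13.98 and 14.47 log2 units on the 4 arrays, down to TNFRSF8 (CD30), between 6.44 and 7.05, and CCL17, between 5.71 and 6.44 and so on both sides of the filter value. Above the filter on their mean were also 5 of 7 B-cell markers with a probe, 2 of 10 T and NK cell markers and 4 of 8 myeloid markers. Among these the T-cell marker CD2 was bright, between 11.59 and 12.17, while CD3D, CD3E and CD3G had means under the filter. Limma called 0 of these markers. The values come from bulk RNA, so fewer cells of a type and less RNA per cell cannot be told apart.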

How the data were processed

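RNA, given in the labels as polyadenylated, was labelled with biotin and measured on 4 Illumina bead arrays. Each probe has 1 deposited log2 value an array, made by the authors. How the scans were read, background-corrected and normalized is not given in the sources examined. The sorted values of the 4 arrays differed by at most 0.0084 log2 units below the top 0.1% of probes, so they were used as deposited. Detection p-values were not used, so the distance of dim probes from background is not known. Of 47231 probes, 1 with an empty cell was left out. In GEO's platform annotation 30112 of the rest had 1 gene symbol, 8 had several and 17110 were not listed, and RefSeq (GRCh38.p14) changed 0 symbols. Groups and array numbers came from the sample titles.

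PDLIM2 minus mock was fitted with limma 3.58.1 (lmFit, eBayes; R 4.3.3), without covariates, on the 23615 probes above the median mean value, with 2 residual and 5.10 prior degrees of freedom. P-values are two-sided and Benjamini-Hochberg adjusted at 0.05. The probe under the filter took its values from the same fit on all probes. An exact permutation test of 2 arrays against 2 cannot go below p = 0.333 and was not used. Alternatives varied the filter, the normalization, an intensity offset, the variance prior, the replicate number as a block and single arrays left out. All class I probes were named, and from each group of the pathway list the 2 genes with the smallest unadjusted p. PSMB8, CIITA and RFX5 were named after their values were seen. The 9 genes and the lists were chosen with earlier results of these data known. Some listed genes were not analysed here. Motifs were searched on both strands of RefSeq promoter windows.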

Additional observations from a re-analysis of the deposited data

How the results depend on the processing

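The counts of 0 class I probes called higher and 0 lower held in limma under the replicate block, limma-trend, a robust prior, median centring, quantile normalization, an intensity offset of 50, all probes tested and a brightness filter raised to percentile 75. The filters, the variance priors and the block cannot change a difference here, only its p, and the deposited arrays already shared 1 distribution, so the normalizations could change little. With the offset the 15 class I differences kept their sign. Adjusted p of class I probes lay between 0.647 and 1.00 in all these settings (limma). The labels give arrays of 1 number nothing else in common. Across tested probes, which are not independent, their deviations from the group means had r = 0.476. With the replicate block limma called 1 of all tested probes lower and 0 higher, and no class I probe. The SE was smaller with the block for all 15 class I probes, for HLA-B 0.15 against 0.23. The lowest unadjusted p of a class I probe was then 0.048 (limma, TAPBP ILMN_1782851, adjusted p = 0.647). All other class I probes stayed above 0.05. The share of all tested probes under 0.05 was not computed for the block. The pathway genes named were put through the same alternatives after the data were seen. At percentile 75, 0 tested class I probes had PDLIM2 values below both mock values, since the TAPBP probe ILMN_1773031 was no longer tested. The median over class I genes, with probes of a gene averaged, was 0.026.

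With an array left out, a lone array borrows its spread from the other group, and the array numbers are unbalanced. Class I probes called higher were then 0 to 1 and lower 0 to 1, probes called among all tested ones 0 to 163 higher and 0 to 647 lower, and pathway list probes called lower 0 to 1. The highest of each came without the PDLIM2 array 1. Class I probes whose groups did not overlap were 0 to 9 higher and 2 to 3 lower. With a lone array in a group, fewer values have to separate than with all arrays. The share of all tested probes without overlap was not computed for these fits. Whether these counts are particular to class I probes therefore cannot be said. The median class I difference ranged from -0.021 to 0.27. The sign turned for 11 of the 15 class I probes. The range was -0.080 to 0.44 for HLA-B, -0.32 to 0.054 for HLA-C (ILMN_1721113), -0.24 to 0.16 for HLA-C (ILMN_2150787), -0.067 to 0.086 for HLA-E and -0.035 to 0.37 for HLA-F (ILMN_2186806), where the other HLA-F probe had 0.043 to 0.29. It was -0.19 to 0.060 for B2M (ILMN_1725427), -0.0010 to 0.24 for B2M (ILMN_2148459), -0.14 to 0.023 for TAP1 and -0.0075 to 0.42 for TAP2 (ILMN_1777565), where the other TAP2 probe had 0.017 to 0.35. For TAPBP it was -0.075 to 0.88 (ILMN_1742450) and -1.05 to 0.0025 (ILMN_1782851), for NLRC5 0.015 to 0.36, and for PSMB9 -0.018 to 0.42. What caused these changes was not tested.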
